A study of Homo sapiens with 4 samples.

Results

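HepG2-vector is the control line of a study of Twist1 and Bcl-2 in hepatocellular carcinoma (HCC), and its miRNA profile is described here alone. HepG2 is an established human line with many hepatocyte traits, grown from a liver tumor. The series held 4 samples, and HepG2-vector was 1 of them. All of its 1212 miRNA probes were taken, with no selection by value, and ranked by intensity. The title of the sample calls the line a vector control, while its construct field reads none, so the backbone and any selection marker are not known from these labels. The lines it was built to be set against stably express Twist1, Bcl-2 or both, and no contrast with them was made. Total RNA of 1 HepG2-vector sample was labelled with Cy3 and hybridized to a two-colour chip of LC Sciences, with HepG2-Twist1 in the Cy5 channel. Each miRNA had 3 repeat spots. All errors below are SDs of these 3 spots within 1 hybridization, and they carry nothing about the spread between cultures. With 1 sample there was no test.

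MiRNAs are short RNAs cut as 2 arms from a hairpin precursor, and the arm that is loaded into an Argonaute protein guides it to messenger RNAs. Target choice rests mostly on the seed, bases 2 to 8 counted from the 5′ end, so miRNAs with 1 seed form a family with overlapping targets. In adult hepatocytes miR-122 is the dominant miRNA, while miR-192 and miR-194 mark liver, gut and kidney epithelium. Names are those of the array, without the species prefix. An asterisk marks the arm that was named as the minor product of a hairpin when the array was designed.

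The let-7 family, which restrains growth and keeps cells differentiated, gave the most signal of any seed family in HepG2-vector. Its members are shown because they differ by so few bases that 1 probe may bind several of them. The sequences here and below are the probe targets of the array that were found in RefSeq hairpins (GRCh38.p14), written 5′ to 3′ with the seed in capitals.
let-7a: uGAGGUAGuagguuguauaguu
let-7i: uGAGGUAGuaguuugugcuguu
let-7f: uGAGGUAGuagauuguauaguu
let-7d: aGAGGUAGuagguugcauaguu
let-7c: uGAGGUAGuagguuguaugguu
let-7b: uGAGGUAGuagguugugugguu
let-7g: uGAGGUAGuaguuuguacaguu
let-7e: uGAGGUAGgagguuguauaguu

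Several of the 15 seed families with the most signal come from growth-linked clusters. MiR-23 and miR-27 share hairpin clusters and have seeds that differ at 1 base, while miR-17, miR-20a and miR-106a, and likewise miR-92a and miR-25, have a common seed and are encoded at more than 1 locus. MiR-21, raised in most solid tumors, is shown with them.
miR-23a: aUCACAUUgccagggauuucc
miR-23b: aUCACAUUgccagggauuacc
miR-27a: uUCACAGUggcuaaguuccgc
miR-27b: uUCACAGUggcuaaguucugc
miR-20a: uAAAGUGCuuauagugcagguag
miR-17: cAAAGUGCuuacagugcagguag
miR-106a: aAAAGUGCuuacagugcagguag
miR-106b: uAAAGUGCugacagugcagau
miR-92a: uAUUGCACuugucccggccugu
miR-25: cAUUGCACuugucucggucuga
miR-92b: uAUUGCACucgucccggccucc
miR-21: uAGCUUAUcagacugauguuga

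Another set consisted of targets rich in G and C, among them that of the brightest miRNA probe. No shared seed joins them, and they are shown for their composition.
miR-3665: aGCAGGUGcggggcggcg
miR-638: aGGGAUCGcgggcggguggcggccu
miR-3196: cGGGGCGGcaggggccuc
miR-1915: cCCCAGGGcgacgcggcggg
miR-3178: gGGGCGCGgccggaucg
miR-762: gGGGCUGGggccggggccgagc
miR-1469: cUCGGCGCggggcgcgggcucc
miR-4281: gGGUCCCGgggagggggg

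Liver-linked miRNAs are shown last, with miR-182 and miR-196a from lists of other tissues. MiR-192 and miR-215 share a seed and lie in separate clusters, each beside a copy of miR-194.
miR-122: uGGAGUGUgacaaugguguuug
miR-192: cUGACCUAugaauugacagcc
miR-215: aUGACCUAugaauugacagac
miR-194: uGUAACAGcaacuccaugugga
miR-148a: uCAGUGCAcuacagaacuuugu
miR-182: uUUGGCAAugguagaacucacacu
miR-196a: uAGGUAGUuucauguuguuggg

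In HepG2-vector, 284 of 1212 miRNAs (23.4%) had a normalized intensity of 32 or more. The limit comes from the study's methods, which used it to drop miRNAs that were lower in every sample. It was set there on the authors' own normalized values, whose median in HepG2-vector was 12.7. The intensity is the spot signal on a linear scale after background correction and normalization of the channels. 144 miRNAs (11.9%) reached 100, 70 (5.78%) reached 1000 and 14 reached 10000. The median over all miRNAs was 21.3 and the range ran from 9.62 to 26979. The array also held control spots named empty and BKG0. The 20 spots named empty lay between 8.87 and 21.5, with 0 at 32 or more. The 20 spots named BKG0 lay between 5.81 and 63.4, and 13 of them reached 32. What the BKG0 spots hold is not given in the sources used here, and their median of 39.8 was above that of the empty spots, 16.1. Of the miRNAs at 32 or more, 114 were no brighter than the highest BKG0 spot and 170 exceeded it. Values between 32 and 63.4 therefore overlapped with the BKG0 spots but not with the empty ones.

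**Figure D1:**
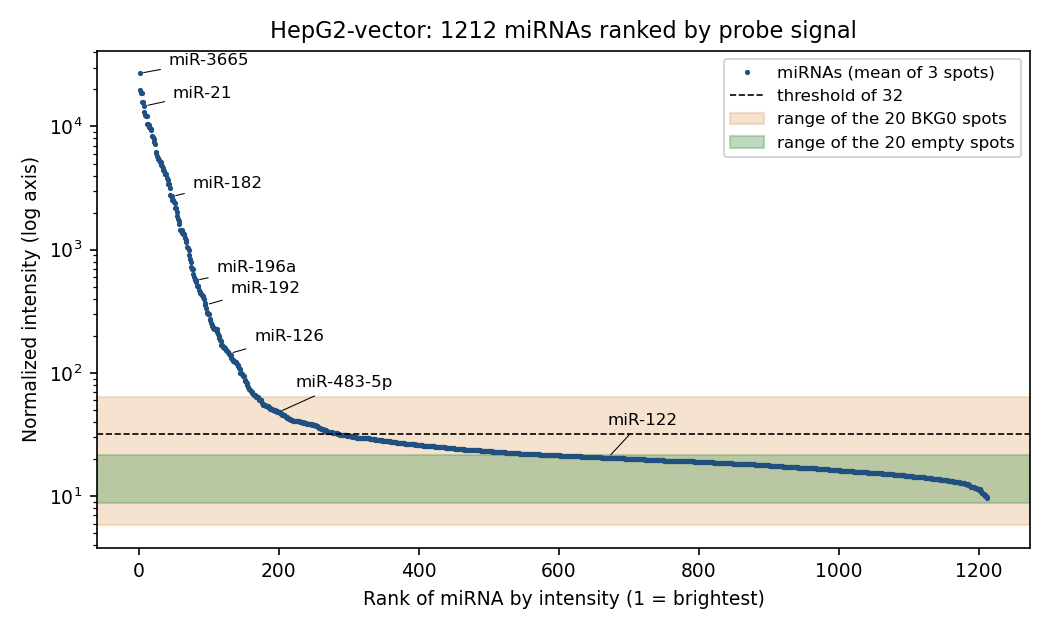
Normalized intensity (log axis) of each of the 1212 miRNAs in HepG2-vector against its rank, each point the mean of 3 repeat spots, with the ranges of the 20 empty and the 20 BKG0 spots as bands and the limit of 32 as a dashed line. The curve drops steeply over the first 144 miRNAs, which reach 100, and most miRNAs, miR-122 among them, lie in the band of the empty spots.

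The signal was held by few miRNAs. With values below 32 counted as 0, the brightest miRNA, miR-3665, held 5.81% of the summed intensity, the 10 brightest held 36.2%, the 20 brightest 57.5% and the 50 brightest 86.8%. 17 miRNAs made up 50% of the sum and 58 made up 90%. The 140 miRNAs between 32 and 100 added 1.48%. These are shares of probe signal. Probes differ in how strongly they bind their target, although the provider balanced their melting temperatures by chemical modification, so the order below is an order of signal and not of molecules.

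Among the 30 brightest miRNAs, 7 carried the let-7 seed, against 9 of all 1212. In the same 30, 12 had 60% or more G and C, against 247 of 1212 (20.4%). The brightest 10 were miR-3665 at 26979 ± 412, miR-23a at 19724 ± 155, miR-638 at 18853 ± 615, miR-23b at 18551 ± 33.7, miR-3656 at 15897 ± 432, miR-3196 at 15890.0 ± 226, miR-21 at 14607 ± 734, let-7a at 13215 ± 639.9, let-7i at 12492 ± 535 and miR-1915 at 12136 ± 203 (mean ± SD of 3 spots, as below). They include both well-studied miRNAs and GC-rich targets. MiR-23a and miR-23b are co-transcribed with miR-27 and miR-24 and act in metabolism and endothelial growth. The spots of miR-21 read 15432, 14362 and 14028. Its hairpin arm lies at chr17:59841273-59841294 on the plus strand, within the bounds of VMP1.

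Ranks 11 to 20 were miR-3178 at 12054 ± 227, miR-1280 at 10558 ± 438, let-7f at 10497 ± 2575, let-7d at 10276 ± 790.4, let-7c at 9954 ± 735, miR-720 at 9788 ± 217, miR-27a at 9461 ± 184, miR-24 at 9404 ± 119, miR-92a at 8379 ± 172 and miR-191 at 8267 ± 330.1. Neighbours in this order were often closer than their spots. The spots of let-7f read 12352, 11582 and 7557, a range that takes in the means of all the other miRNAs in ranks 11 to 20. MiR-27a is best known from fat and cholesterol metabolism, miR-24 for holding back the cell cycle, and miR-191 for its steady level across many cell types.

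Ranks 21 to 30 were miR-2861 at 7862 ± 726, let-7b at 7497 ± 368, miR-663 at 7179.8 ± 219, miR-762 at 6256 ± 164, let-7g at 6072 ± 735, miR-1469 at 5729.5 ± 194, miR-30c at 5564 ± 484, miR-20a at 5485 ± 277, miR-25 at 5382 ± 120.3 and miR-1260b at 5167 ± 35.6. MiR-20a and miR-25 belong to the clusters of miR-17 and miR-106b, targets of MYC and E2F1 that promote proliferation. MiR-2861, miR-663, miR-762 and miR-1469 were the GC-rich members of this set. The spots of miR-2861 read 7180.1, 8626 and 7780.2.

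The 1212 targets fell into 1007 seed families, of which 883 had a single member on the array. 222 families had a member at 32 or more. The 15 families with the most signal held 68.5% of the sum and the first 5 held 38.4%. 6 of the 15 were single GC-rich or tRNA-like targets, namely miR-3665, miR-638, miR-3656, miR-1915, miR-3178 and miR-1280.

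**Figure D2:**
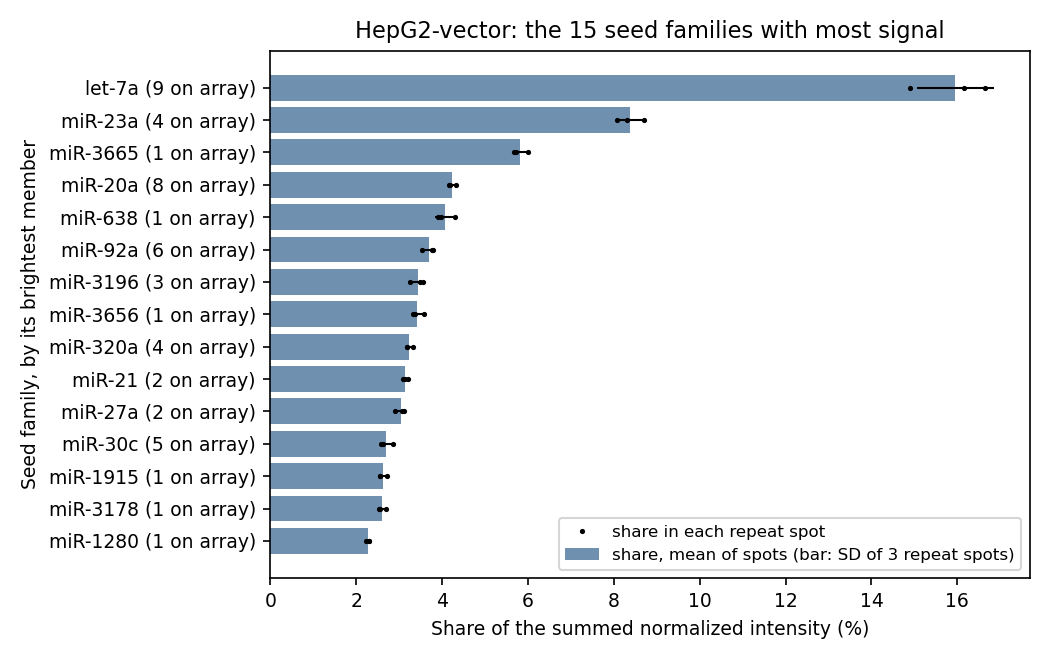
Share of the summed normalized intensity (%, linear axis) held by each of the 15 seed families with the most signal in HepG2-vector, named by the brightest member and with the number of members on the array, bars for the mean of the spots, error bars for the SD over 3 repeat spots and points for each spot. The let-7 family stands first at 15.9%, ahead of the miR-23 family at 8.37% and miR-3665 at 5.81%.

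The let-7 family held 15.9% ± 0.896 of the signal (SD over the 3 spots). All of its 9 members on the array were at 32 or more, against 23.4% of all miRNAs. Below let-7a, let-7i, let-7f, let-7d, let-7c, let-7b and let-7g came let-7e at 3709 ± 717 and miR-98 at 371 ± 138. From let-7a, let-7f differs by G12A alone, let-7c by A19G and let-7e by U9G, where positions count from base 1 at the 5′ terminus and the let-7a base is written first, while miR-98 has G11A and A19U. What part of each value came from a relative on the same probe was not tested. Let-7a itself is encoded by 3 hairpins, so its signal cannot be assigned to 1 locus.

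The miR-23 family followed with 8.37% ± 0.325. MiR-23a and miR-23b differ by U19A, and their spots read 19809, 19545 and 19819 for miR-23a and 18573, 18568 and 18512 for miR-23b. MiR-23c, which differs from miR-23b by G14U, read 597 ± 46.6, and miR-130a*, which shares the seed only, read 18.7 ± 3.49, within the range of the empty spots. The miR-27 family held 3.03% ± 0.112, with miR-27a as above and miR-27b, which differs by C19U, at 4616 ± 221.

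The miR-17 seed family held 4.23% ± 0.0816, spread over 6 of 8 members. After miR-20a came miR-17 at 4345 ± 51.9, miR-106a at 4093 ± 337, miR-93 at 2386 ± 130.3, miR-106b at 2183 ± 212 and miR-20b at 1150.3 ± 195. MiR-17 and miR-106a, from chromosomes 13 and X, differ at the first base alone (C1A). The members in the range of the empty spots were miR-526b* at 19.01 and miR-519d at 17.02, both from the placental cluster of chromosome 19. The miR-92 family held 3.70% ± 0.138 with miR-92a and miR-25 as above and miR-92b at 3409 ± 96.97. Its remaining members, miR-367 of the stem cell cluster at 19.9, miR-32 at 16.95 and miR-363 at 15.7, were below 32.

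The miR-320 family held 3.23% ± 0.0759, with miR-320a at 4875 ± 158, miR-320c at 4142 ± 70.9, miR-320b at 3442 ± 27.5 and miR-320d at 2533 ± 131. These targets are shortened or altered at 1 base near the 3′ end. MiR-320e at 2027 ± 41.5 has its annotated 5′ end 1 base later and so falls into another seed family. MiR-320 is processed without Drosha, the nuclease that frees most hairpins. The miR-30 family, which restrains EMT and autophagy, held 2.69% ± 0.146. All 5 of its members were at 32 or more, against 23.4% of all miRNAs. Below miR-30c were miR-30a at 3184 ± 266, miR-30b at 1724 ± 381, miR-30d at 1457 ± 107 and miR-30e at 568 ± 104. The family of miR-21 held 3.14% ± 0.0571 through miR-21 alone, since miR-590-5p, with the same seed, read 14.4. The seed of miR-3196 gave 3.43% ± 0.152, and its other members, miR-3180 at 44.3 and miR-3180-3p at 28.1, were no brighter than the highest BKG0 spot.

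The share of miRNAs at 32 or more differed with base composition. Of the 25 targets with 80% or more G and C, 19 (76.0%) were at 32 or more and 12 (48.0%) at 1000 or more, against 23.4% and 5.78% of all miRNAs. They held 29.2% of the summed intensity. Of the 46 targets below 30% G and C, 8.70% were at 32 or more. Among the 204 targets with 30% to below 40% G and C, the share was 13.7%, and it was 21.1% of the 336 with 40% to below 50%, 20.3% of the 379 with 50% to below 60%, 35.3% of the 156 with 60% to below 70% and 45.5% of the 66 with 70% to below 80%. The share at 1000 or more did not follow this order. It was 8.33% with 40% to below 50% and 1.92% with 60% to below 70%.

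Across all 1212 miRNAs the Spearman correlation of intensity with the share of G and C was 0.41 (Pearson on the log2 scale 0.22). These are correlations across miRNAs of 1 hybridization, which are not independent replicates. Among the 928 miRNAs below 32 the Spearman value was 0.49, and among the 284 at 32 or more it was -0.17. A run GGGG was present in 13 of the 70 targets at 1000 or more (18.6%), against 99 of all 1212 (8.17%), read on the miRNA strand only. A first base U, the base that Argonaute proteins favour, was found in 31 of the 70 (44.3%), against 431 of 1212 (35.6%). Targets shorter than 20 bases made up 14 of the 70 and 130 of 1212.

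**Figure D3:**
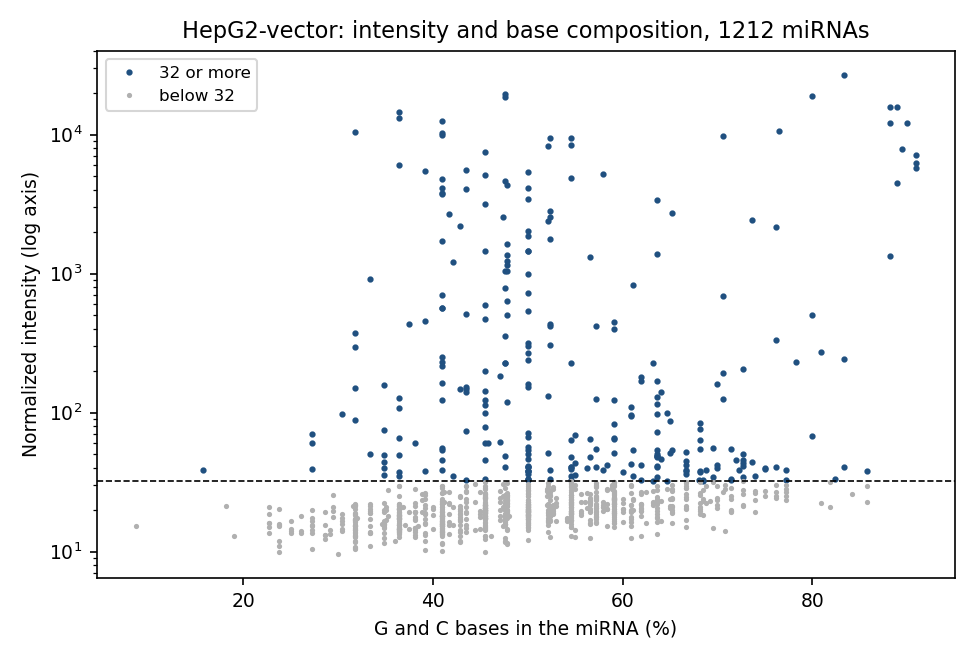
Normalized intensity in HepG2-vector (log axis) of the 1212 miRNAs against the share of G and C in each (%), dark points at 32 or more and grey points below, with the limit as a dashed line. Among targets of 80% or more G and C, 12 of 25 lie at 1000 or more, while below that share most points sit under the limit.

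Of the 70 miRNAs at 1000 or more, 19 (27.1%) had 60% or more G and C, against 247 of all 1212 (20.4%). Of the 19, 12 had 80% or more. The 19 were led by miR-3665, miR-638, miR-3656, miR-3196, miR-1915 and miR-3178. The RefSeq targets among them lie in scattered places, miR-3665 at chr13:77698075-77698092 on the minus strand within the bounds of SLAIN1, miR-638 at chr19:10718419-10718443 on the plus strand within those of DNM2, and miR-3196 at chr20:63238788-63238805 on the plus strand within those of BIRC7. At the low end of the group were miR-3185 at 2720.1 ± 237, miR-3141 at 2430.3 ± 282, miR-149* at 2162 ± 159, miR-99b at 1373 ± 206 and miR-3195 at 1342 ± 22.7.

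All 7 array entries of the list of tRNA and U2 snRNA fragments were at 32 or more, against 23.4% of all miRNAs, with a median of 1208 against 21.3 over all miRNAs, and they held 5.80% of the signal. The brightest were miR-1280 at 10558 ± 438, miR-720 at 9788 ± 217 and miR-1260b at 5167 ± 35.6, which match tRNA, and miR-1246, which matches U2 snRNA, at 1208 ± 132. The other tRNA-like entries were dimmer, with miR-1274b at 125 ± 17.3, miR-1260 at 53.4 ± 2.94 and miR-1274a at 52.1 ± 7.34. Signal on these probes counts RNA of either source.

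Of the liver list 3 of 10 members were at 32 or more (30%, against 23.4% of all miRNAs), 2 reached 100 (against 11.9%) and 0 reached 1000, and the list held 0.112% of the signal. With the Cy3 channel alone 9 of the 10 were at 32 or more, as were 831 of all 1212 miRNAs. MiR-122, which keeps hepatocytes differentiated and shapes lipid metabolism, read 20.5 ± 2.77, with spots at 23.6, 19.1 and 18.6. The mean of the 20 empty spots was 16.3 ± 3.54 (SD of 20 spots) and their highest 21.5, so the mean of the defining miRNA of hepatocytes lay within the range of the empty spots. Its other arm, miR-122*, read 14.9 ± 2.82.

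MiR-192, at chr11:64891203-64891223 on the minus strand, was the brightest liver-linked miRNA at 356 ± 63.8 (spots 402, 382 and 283), rank 95 of 1212. MiR-194, its neighbour and a partner in holding back EMT, read 113 ± 33.6 (spots 139, 125 and 74.9), rank 142. Both lay above every empty and BKG0 spot in each of their 3 spots. MiR-148a, which targets the DNA methyltransferase DNMT1, read 53.4 ± 5.78 (spots 60.1, 50.1 and 50.1), above 32 in each spot but within the range of the BKG0 spots. MiR-215, with the seed of miR-192, read 27.99 ± 0.599. The minor arms miR-192* at 24.9 and miR-194* at 23.9 and both arms of miR-885, at 19.4 for 5p and 23.4 for 3p, were below 32.

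4 miRNAs of the imprinted IGF2 and H19 locus, active in fetal liver and in many liver tumors, were on the array, and 1 reached 32 (25%, against 23.4% of all miRNAs). This was miR-483-5p, from an intron of IGF2, at 48.2 ± 4.37, within the range of the BKG0 spots. The count was 0 with the median empty spot subtracted, where 192 of all 1212 miRNAs reached the limit. MiR-483-3p read 19.4 ± 1.93, miR-675 of the H19 transcript 14.7 ± 1.01 and miR-675* 16.4 ± 4.07, all at the level of empty spots.

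**Figure D4:**
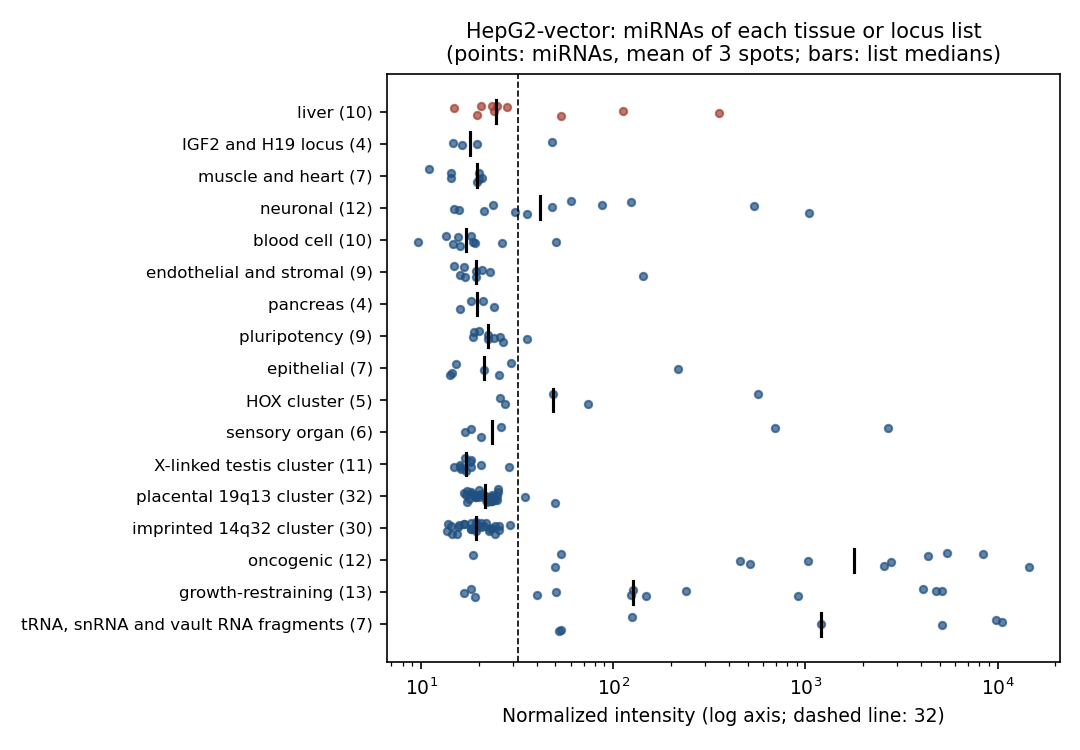
Normalized intensity in HepG2-vector (log axis) of the miRNAs of each tissue, locus or function list, points for miRNAs (mean of 3 spots), black bars for list medians, liver in red and the limit of 32 as a dashed line. The lists of muscle, pancreas, the X-linked testis cluster and the imprinted 14q32 cluster lie wholly below 32, whereas 11 of 12 oncogenic miRNAs lie above it, against 23.4% of all miRNAs.

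Liver tissue also holds blood, endothelial and stromal cells. Of the blood cell list 1 of 10 was at 32 or more (10%, against 23.4% of all miRNAs), miR-486-5p at 50.3 ± 3.10. MiR-142-3p, which marks all leukocytes, read 15.98, miR-223 of myeloid cells 26.3, miR-451 of red cells 14.6 and miR-144 9.62, the lowest mean of any miRNA. Of the endothelial and stromal list 1 of 9 was at 32 or more (11.1%). This was miR-126, the endothelial marker encoded in EGFL7, at 144 ± 12.9 (spots 136, 158 and 136), above every empty and BKG0 spot. Its partner arm miR-126* read 19.4, and the smooth muscle and fibroblast markers miR-143, miR-145, miR-199a-3p and miR-214 read 15.9, 19.2, 20.8 and 22.9.

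The neuronal list had 7 of 12 members at 32 or more (58.3%, against 23.4% of all miRNAs), led by miRNAs that many other tissues also express. The count was 5 with the median empty spot subtracted, 6 by spot medians and 10 with the Cy3 channel alone. Of all 1212 miRNAs, 192, 285 and 831 were at 32 or more in these settings. MiR-128 read 1048 ± 57.9, miR-132 542 ± 57.8 and miR-212, which shares the seed and the locus of miR-132, 124 ± 2.49. MiR-9* read 87.7 ± 3.39 and miR-9, from the opposite arm, 35.6 ± 8.36. MiR-124 and miR-137 of the same list read 23.7 and 14.8. MiR-218 passed 32 with a mean of 60.6 through 1 spot, its spots being 146, 20.7 and 14.9. The means of miR-9, miR-218 and miR-138, the last at 47.8 ± 8.12, were within the range of the BKG0 spots.

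Of the sensory organ list 2 of 6 were at 32 or more (33.3%, against 23.4% of all miRNAs). MiR-182 read 2705 ± 114 (spots 2626, 2836 and 2654), rank 47, and miR-183 698 ± 55.7 (spots 717, 635 and 742). MiR-96, which is encoded in their cluster, read 20.5 ± 13.6, with spots at 23.4, 5.60 and 32.4. These miRNAs are cut from 1 transcript in sensory cells and are raised in many carcinomas. MiR-184, miR-204 and miR-211 were below 32, at 26.2, 18.1 and 17.01.

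Of the HOX cluster list, 3 of 5 were at 32 or more (60%, against 23.4% of all miRNAs). With the median empty spot subtracted it was 2, against 192 of all 1212 miRNAs. MiR-196a, which targets HOXB8, read 563 ± 105 (spots 677, 542 and 471), while miR-196b, which differs by 1 base (A12C), read 25.8 ± 1.12. MiR-10a, within the bounds of HOXB3, read 74.02 ± 2.81, and miR-10b, from the HOXD cluster and linked to Twist1 in breast cancer, read 27.2 ± 3.83. MiR-615-3p, within the bounds of HOXC5, read 48.7 ± 4.34. The list leaves out the opposite arms. Of these, miR-615-5p read 32.5 ± 10.4, while miR-10a*, miR-10b*, miR-196a* and miR-196b* read 18.1, 15.8, 20.5 and 29.9.

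The epithelial list had 1 of 7 at 32 or more (14.3%, against 23.4% of all miRNAs). It was miR-203, which restrains stemness in skin, at 216 ± 45.5 (spots 265, 208 and 175). The miR-200 family, which holds back ZEB1 and ZEB2, had the means of all its listed members below the limit. MiR-200c was at 29.5 ± 5.95, miR-429 at 21.2, miR-200a at 15.3, miR-200b at 14.6 and miR-141 at 14.1. Of these, miR-200c had 1 spot above 32, at 34.4, and miR-205 read 25.4. The count of the epithelial list was 2 with repeat spot 3 left out and 4 with the Cy3 channel alone, against 322 and 831 of all 1212 miRNAs.

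None of the 7 muscle and heart miRNAs, the 4 pancreatic ones, the 11 of the X-linked testis cluster or the 30 listed of the imprinted 14q32 cluster reached 32, against 23.4% of all miRNAs. MiR-323-5p, an arm from 14q32 that the list does not hold, read 34.3 ± 3.60. The highest values of these lists were 20.7 for miR-206, 23.9 for miR-375 of islet cells, 28.5 for miR-513a-5p and 28.98 for miR-431. MiR-1 and miR-133a, the main miRNAs of muscle, read 19.97 and 19.5. The medians of these lists lay between 17.1 and 19.5, within the range of the empty spots. With the Cy3 channel alone 831 of all 1212 miRNAs were at 32 or more. Among them were 4 of the muscle and heart list, 2 of the pancreatic one, 2 of the testis cluster and 19 of the 14q32 list.

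Of the listed miRNAs of the placental cluster of 19q13, 2 of 32 were at 32 or more (6.25%, against 23.4% of all miRNAs), miR-522 at 49.6 ± 11.7 and miR-518b at 34.7 ± 11.3, both within the range of the BKG0 spots. The count was 0 with the median empty spot subtracted and 25 with the Cy3 channel alone, against 192 and 831 of all 1212 miRNAs. All the miRNAs that RefSeq places in this cluster numbered 49, of which 4 reached 32, the others being miR-518f* at 41.3 ± 11.2 and miR-518d-5p at 40.7 ± 9.70. The next of the list were miR-519a at 25.2 and miR-518e at 25.1. Of the pluripotency list, 1 of 9 was at 32 or more (11.1%), miR-371-5p at 35.6 ± 5.17, beside miR-373 at 26.5, miR-372 at 25.7 and miR-302c at 24.1. It was 0 of this list with the median empty spot subtracted and 9 with the Cy3 channel alone, again against 192 and 831 of all 1212.

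Among oncogenic miRNAs, 11 of 12 were at 32 or more and 7 at 1000 or more, against 23.4% and 5.78% of all miRNAs, with a median of 1795, and they held 8.67% of the signal. The 4 brightest were miR-21, miR-92a, miR-20a and miR-17, whose values are given above. MiR-31, which acts in invasion with a direction that depends on the tumor, read 2804 ± 105 at rank 45. MiR-222 at 2555 ± 48.9 and miR-221 at 1036 ± 26.8, which silence the cell cycle inhibitor p27, lie in 1 cluster on chromosome X. The hypoxia miRNA miR-210 read 53.5 ± 6.56 and miR-19a 49.5 ± 7.59, both within the range of the BKG0 spots. The count of the list at 32 or more was 10 with the median empty spot subtracted, against 192 of all 1212 miRNAs. The exception was miR-21*, the minor arm of miR-21, at 18.5.

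Of the growth-restraining miRNAs, 10 of 13 were at 32 or more and 3 at 1000 or more, against 23.4% and 5.78% of all miRNAs. With the median empty spot subtracted 8 were at 32 or more, against 192 of all 1212. The brightest were miR-16 at 5156 ± 49.9, which targets BCL2, miR-26a at 4767 ± 92.6 and miR-29a at 4099 ± 33.8, which targets collagens and DNA methyltransferases. MiR-26b, the miRNA that the study followed further, read 914 ± 31.1 (spots 922, 941 and 879.9), rank 72. MiR-34a, a target of p53, read 240.4 ± 13.2, while miR-34b* at 18.96 and miR-34c-5p at 18.2 did not reach 32. MiR-101 and miR-29b, at 50.5 ± 10.4 and 39.95 ± 10.3, were within the range of the BKG0 spots, and miR-497 read 16.6 while its cluster partner miR-195 read 149 ± 34.8.

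Both arms of a hairpin were on the array for 259 pairs that RefSeq placed. In 128 of them neither arm reached 32, 1 arm did in 101 and both did in 30, while 23.4% of all miRNAs reached it. Where at least 1 arm reached 32, the 5p arm was the brighter in 84 and the 3p arm in 47. Of the 48 pairs with an arm at 1000 or more, the second arm was at 32 or more in 16. Among all miRNAs with an asterisk, 18.2% were at 32 or more. In 5 pairs both arms reached 100. Some of these pairs share an arm, since 1 mature sequence can come from several hairpins.

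The hairpins with the brightest arms were those of miR-23a, miR-23b, miR-21, let-7a and let-7i. MiR-23a* read 64.7 ± 4.19 and miR-23b* 23.4 ± 3.06. Of let-7a, the arm let-7a-2* of 1 hairpin read 40.7 ± 6.40 and let-7a*, which comes from the other hairpins, 21.9 ± 3.51. Let-7i* read 23.9 ± 4.60. The pairs in which both arms reached 100 were let-7d with let-7d* at 153 ± 18.7, miR-24 with miR-24-2* at 162 ± 13.3, miR-30a with miR-30a* at 315 ± 54.1, miR-30e with miR-30e* at 124 ± 27.5, and miR-629 at 227 ± 47.9 with miR-629* at 123 ± 16.8.

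**Figure D5:**
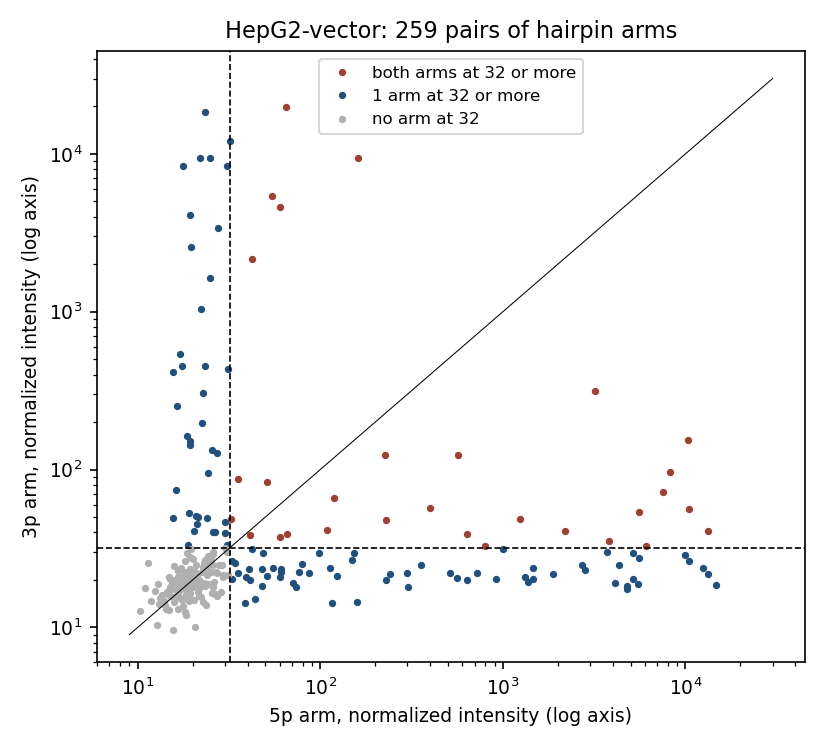
Normalized intensity in HepG2-vector of the 3p arm against the 5p arm (both log axes) for the 259 pairs of arms, red where both reach 32, blue where 1 does and grey where neither does, with the limit as dashed lines and equality as a thin line. Most bright points hug 1 of the 2 axes, and 5 pairs lie at 100 or more on both.

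Of the 187 miRNAs with an asterisk, 34 (18.2%) were at 32 or more, against 23.4% of all miRNAs, and 1 was at 1000 or more. This was the GC-rich miR-149* at 2162 ± 159 while miR-149 read 42.3 ± 8.18. Its arm lies at chr2:240456056-240456076 on the plus strand, within the bounds of GPC1.

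Hairpins of 1 strand within 10 kb of each other were grouped into clusters, a description added after the values were seen. 33 clusters had at least 2 miRNAs at 32 or more. A mature miRNA encoded at several loci, such as let-7a or miR-3180, counts in each of its clusters. MiRNAs that were not placed in a RefSeq hairpin are missing from the clusters, among them the bright miR-93, miR-20b, miR-30b and miR-30d. The 33 are therefore not a count of separate active loci, and clusters of bright miRNAs can be absent from them. The cluster of miR-23a, miR-27a and miR-24-2 at chr19:13836287-13836659 had its 3 major arms among the 20 brightest miRNAs. In the cluster of miR-17 to miR-92a-1 at chr13:91350605-91351391, within the bounds of MIR17HG, the major arms were uneven. MiR-92a, miR-20a and miR-17 were among the 40 brightest miRNAs, miR-18a read 512 ± 6.02, miR-19b 454 ± 66.4 and miR-19a 49.5 ± 7.59. MiR-92a and miR-19b also have a copy in the cluster of miR-106a on chromosome X, where miR-18b read 154 ± 29.1 and miR-363 was below 32. The cluster at chr7:100093560-100094074, within the bounds of MCM7, held the 2 placed hairpins of miR-25 and miR-106b. Both of their minor arms were at 32 or more as well, miR-25* at 54.7 ± 4.47 and miR-106b* at 40.7 ± 7.42.

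In the cluster of miR-191 and miR-425 at chr3:49020148-49020709, miR-425 read 1238 ± 33.6. The cluster of miR-99a and let-7c on chromosome 21 paired let-7c with miR-99a at 301 ± 123, whose spots were 413, 322 and 169. MiR-16 and miR-15b at chr3:160404588-160404825 were bright together, miR-15b at 3819 ± 65.3, while miR-15a, the partner of the other copy of miR-16, read 124 ± 6.82. MiR-29a at 4099 and miR-29b at 39.95 share a cluster on chromosome 7. MiR-224, raised in many HCC, read 793 ± 9.02, and its neighbour miR-452 within the bounds of GABRE 38.8 ± 6.20.

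The miRNAs nearest to the limit were miR-4312 at 32.4 ± 3.30, miR-4294 at 32.3 ± 7.34 and miR-4327 at 32.2 ± 7.94 on its upper side, and miR-1915* at 31.96 ± 7.80, miR-1271 at 31.9 ± 3.98 and miR-339-3p at 31.6 ± 5.39 below it. Each of these 6 had spots on both sides of 32, so their places could not be told apart. Over the array, 229 miRNAs had all 3 spots at 32 or more and 165 had spots on both sides. The median coefficient of variation of the spots was 3.82% for miRNAs at 1000 or more and 17.2% for those between 32 and 100. MiR-3124 had the widest spots of those at 100 or more, at 38.6, 478 and 23.9.

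The authors' normalized values of the same sample ranked the miRNAs alike, with the same 10 brightest and 29 of the 30 brightest in common. They put 259 miRNAs at 32 or more. Of the 284 found here, 257 (90.5%) were among them, which was 99.2% of theirs. At 100 or more, 146 miRNAs passed in their values and 144 in both. The Spearman correlation over the 1212 miRNAs was 0.99, of values that come from the same spots.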

How the data were processed

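The authors had total RNA hybridized by LC Sciences to microfluidic chips with probes against miRBase sequences, scanned them with a GenePix laser scanner and digitized the images with Array-Pro. A scanner table and a value table were used for HepG2-vector. The deposited scanner table gives the median density of each spot, an intensity on a linear scale with no background column. The deposited value table holds 1 normalized intensity per miRNA, which the authors made by background subtraction and LOWESS, on a linear scale and not centred. Its step of filtering below 32 was not applied to the rows here, since lower values are listed. The table of the second array was not used.

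Scanner intensities of both channels were corrected with limma 3.58.1 (R 4.3.3), normexp with an offset of 50, and loess within the array (span 0.3, 4 iterations, control spots at weight 0). The offset was then taken off and the 3 spots of a miRNA averaged on the linear scale. Loess uses the Cy5 channel of HepG2-Twist1, so the Cy3 channel alone was an alternative. The highest miRNA spot read 35944. A single array limits the precision. Descriptions were computed in Python 3.11.15 (scipy 1.17.1, pandas 2.3.3, numpy 2.4.6), and the steps were tested on simulated spots.

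MiRNAs were matched by target sequence to RefSeq (GRCh38.p14), where 1001 of 1212 lay in a hairpin. Positions within the bounds of a gene do not tell exon from intron. Members and the 17 lists were chosen with earlier results of these data known. Named miRNAs were the 30 brightest, up to 4 of each of the 15 leading families, all liver and IGF2 and H19 members, up to 4 brightest of the other lists, 3 on each side of 32 and the hairpins with the 5 brightest pairs of arms. Others were named after their values were seen. Alternatives were the Cy3 channel alone, the authors' values, subtraction of the median empty spot, an offset of 16, spot medians, leaving out each spot, other limits, seeds of bases 2 to 7 and sums with other members.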

Additional observations from a re-analysis of the deposited data

Results flagged for a closer look

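Signal far above the empty spots was also present in HepG2-vector outside the miRNA probes. The array carries 6 control probes against 5S ribosomal RNA, each at 4 spots. Their median normalized intensities were 9115 for probe b1, 13747 for b4, 14917 for b3, 22199.8 for b5, 26179.6 for b2 and 36148 for b6, against a median of 16.1 over the 20 empty spots. Probe b6 was brighter than miR-3665, and the spots of b2 ranged from 13409.8 to 27390.4.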

How the results depend on the processing

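The counts at the limit of 32 depended on the processing. With the Cy3 channel alone, 831 miRNAs were at 32 or more, 9 of them in the liver list, and 167 hairpins had both arms there, while 5 of the 20 empty spots reached 32 as well. Subtraction of the median empty spot left 192 miRNAs at 32 or more and 14 hairpins with both arms. A limit of 64 left 168 miRNAs, and a limit of 100 left 5 hairpins. The count at 100 or more was between 136 and 175 over these corrections and the authors' values. The share of the 10 brightest miRNAs was 33.4% with Cy3 alone, 38.2% in the authors' values, 37.7% with empty spots subtracted, 34.9% with dim values kept and 38.5% without the fragments of other RNAs, which put let-7 at 16.9%. The correlation with G and C turned to -0.17 among miRNAs at 32 or more, where 284 remain. With each repeat spot left out, the counts were 276 to 322 miRNAs, 3 liver members and 29 to 39 hairpins, the shares 35.7% to 36.5% and 15.5% to 16.4%, and the correlation 0.388 to 0.405. 13 miRNAs, miR-218 among them, were at 32 or more by the mean and below it by the median of their spots. For 14 others it was the reverse. The causes were not tested.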

Other observations

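Outside the lists and leading families, miR-125b, which targets p53 and is lost or raised in different tumors, read 1874 ± 39.3. MiR-100, which like the placed hairpin of miR-125b lies within the bounds of MIR100HG, read 1456 ± 221. MiR-103, a regulator of insulin signalling, read 1624 ± 110.1, and miR-107, with the same seed, read 1357 ± 118. MiR-151-5p, encoded in the kinase gene PTK2 and linked to HCC migration, read 1769 ± 27.04, and miR-361-5p 1456 ± 56.9. In the X-linked cluster that holds miR-424 and miR-503, which acts on the G1 phase, miR-424 read 65.8 ± 22.6 and miR-503 64.3 ± 1.46, just above the highest BKG0 spot. Its member miR-450b-5p read 70.5 through 1 spot, with spots at 185, 16.6 and 10.1. These miRNAs were chosen after their values were seen.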
